A study of Homo sapiens with 18 samples.

Results

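The POU3F and POU4F genes encode the brain-type POU transcription factors, and all 7 of them are described here: POU3F1, POU3F2 (also called BRN2), POU3F3, POU3F4, POU4F1, POU4F2 and POU4F3. They were chosen by name from 15841 protein-coding genes whose start and strand are given by RefSeq, and each was followed over a window from 100 kb upstream of the gene to 20 kb beyond it. The cells were V16D, a castration-resistant prostate cancer line derived from LNCaP. They had been transduced with a control lentivector (V16D/CTL) or with a lentivector that overexpresses the long noncoding RNA H19 (V16D/H19), so both groups had been transduced and both stem from a single line. Each group had 3 replicates, and every replicate was immunoprecipitated for H3K4me3 and for H3K27me3 with an input library of its own, which gave 12 peak lists. The comparison asks how H19 overexpression changed the distribution of both histone marks, and the files hold no RNA measurement.

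POU factors bind DNA through a POU-specific domain linked to a homeodomain and act in neural development. The POU3F genes are used in glia and in cortical and hypothalamic neurons, while the POU4F genes specify sensory neurons, retinal ganglion cells and the hair cells of the inner ear. POU3F2 is also known as a driver of the neuroendocrine state in prostate cancer. Trimethylation of H3K4 marks active or poised promoters, trimethylation of H3K27 is laid down by the Polycomb complex PRC2 at silent developmental genes, and a promoter carrying both is called bivalent.

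Peak lists hold peaks and not reads, so read depth cannot be taken from them. The H3K4me3 lists held 20048 to 21934 peaks that covered 28.8 to 31.4 Mb. The H3K27me3 lists held 55060 to 72289 peaks for the 3 control replicates and 56239 to 62879 for the 3 V16D/H19 replicates, which covered 45.1 to 62.2 Mb and 42.3 to 48.4 Mb, respectively. In the H3K27me3 lists the share of peaks with a −log10 q of at least 5 was 0.912% to 0.967% in V16D/CTL and 0.252% to 0.301% in V16D/H19, and the median fold over input at sites shared by all 6 libraries was 3.85 to 3.94 and 3.74 to 3.78. These library-wide values moved in the same direction as the H3K27me3 results of the POU genes below, and their part in those results was not tested. As a check of the cell type, 3 of 6 luminal and 2 of 4 neuroendocrine marker genes on the list had a start in the RefSeq table. KLK3 and KLK2 carried H3K4me3 and no H3K27me3 at the promoter in all 6 replicates, KRT8 carried neither at the start used, SYP carried H3K4me3 in all 6 replicates, and CHGA carried H3K27me3 in 1 of 3 V16D/CTL and 3 of 3 V16D/H19 replicates and no H3K4me3.

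The sequences just upstream of 4 starts are shown because they stand for 4 promoter states, namely both marks in all replicates (POU3F2), H3K4me3 with H3K27me3 in 5 of 6 replicates (POU4F1), H3K27me3 alone (POU4F3) and no peak (POU3F4). Each run gives the 250 bases before the start, 5′ to 3′ on the strand of the gene, from RefSeq (GRCh38.p14), and capitals mark CpG dinucleotides. The runs lie at chr6:98834324-98834573 (plus strand), chr13:78603553-78603802 (minus strand), chr5:146338589-146338838 (plus strand) and chrX:83508040-83508289 (plus strand).
POU3F2: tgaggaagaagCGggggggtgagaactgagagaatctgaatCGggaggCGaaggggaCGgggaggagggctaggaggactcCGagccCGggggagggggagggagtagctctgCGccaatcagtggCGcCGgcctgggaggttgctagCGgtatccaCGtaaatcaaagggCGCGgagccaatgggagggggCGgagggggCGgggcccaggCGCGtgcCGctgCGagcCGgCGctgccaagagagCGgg
POU4F1: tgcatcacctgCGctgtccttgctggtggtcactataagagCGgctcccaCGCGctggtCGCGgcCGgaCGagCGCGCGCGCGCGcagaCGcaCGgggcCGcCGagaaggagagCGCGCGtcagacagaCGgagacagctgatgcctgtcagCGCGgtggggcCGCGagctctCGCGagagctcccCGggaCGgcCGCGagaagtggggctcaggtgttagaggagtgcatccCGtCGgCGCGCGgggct
POU4F3: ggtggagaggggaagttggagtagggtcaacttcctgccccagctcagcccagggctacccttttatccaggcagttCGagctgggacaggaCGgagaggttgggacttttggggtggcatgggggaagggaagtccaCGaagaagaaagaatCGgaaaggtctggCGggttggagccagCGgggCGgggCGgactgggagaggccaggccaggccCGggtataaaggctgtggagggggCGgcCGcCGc
POU3F4: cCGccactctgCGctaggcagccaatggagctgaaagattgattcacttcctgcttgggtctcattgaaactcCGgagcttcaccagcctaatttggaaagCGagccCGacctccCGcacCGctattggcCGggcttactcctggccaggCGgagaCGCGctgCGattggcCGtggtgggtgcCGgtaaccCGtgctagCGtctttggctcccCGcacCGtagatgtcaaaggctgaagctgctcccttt

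All 7 genes had at least 12 CpG dinucleotides in these 250 bases, where the median of 35114 RefSeq promoters was 11 and the quartiles were 3 and 23. POU4F1 held 37, POU3F1 36, POU4F2 26, POU3F2 22, POU3F3 18, POU3F4 18 and POU4F3 12. POU3F4, with no peak of either mark in any library, had as many CpG dinucleotides as POU3F3, whose start lay under H3K27me3 in all 6 replicates. The genes with H3K4me3 at the promoter in all 6 replicates (POU4F1, POU3F1 and POU3F2) held 37, 36 and 22, and the others held 26, 18, 18 and 12. Whether CpG number goes with the promoter state was not tested. The POU octamer ATGCAAAT, searched on both strands, was in none of the 7 and in 1.63% of all promoters. The letters TATAAA, also searched on both strands, were in POU4F3 alone among the 7 and in 10.7% of all promoters. No match says only that these letters are not in this window.

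The 7 promoters (within 1 kb of the start) differed in state, and the state of 5 of them was the same in all 6 replicates. POU3F1 and POU3F2 carried both marks in all 6 replicates, a state shared by 2.75% of the 15841 protein-coding promoters. POU4F1 carried H3K4me3 in all 6 replicates and H3K27me3 in 2 of 3 V16D/CTL and 3 of 3 V16D/H19 replicates. POU4F2 and POU4F3 carried H3K27me3 in all 6 replicates and H3K4me3 in none, a state shared by 2.13% of promoters. POU3F3 carried H3K27me3 in all 6 replicates, and an H3K4me3 peak reached within 1 kb of its start in 1 V16D/H19 replicate only. POU3F4, a factor of the developing inner ear, had no peak of either mark, as had 4274 of the 15841 promoters. A list of peaks does not show that a mark is absent, only that no region passed the peak caller.

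Over the 6 replicates, 5.83 ± 0.408 (SD, n = 6) of the 7 promoters carried H3K27me3, 3.17 ± 0.408 carried H3K4me3 and 3.00 ± 0.632 carried both. The number with both marks was 2, 3 and 3 in V16D/CTL against 3, 3 and 4 in V16D/H19, and the groups overlapped. Strong H3K27me3 peaks were rare. With a −log10 q of at least 5 required, H3K27me3 remained at the promoter of POU3F1 in 3 V16D/CTL replicates and 1 V16D/H19 replicate, at POU3F2 in 2 and 0, at POU3F3 in 2 and 0, and at none of the POU4F promoters. In all 7 windows together there were 4, 4 and 3 such peaks in V16D/CTL against 0, 0 and 1 in V16D/H19 (exact permutation test, two-sided, p = 0.10, the smallest that 3 against 3 allows), beside the fall in the share of such peaks over the whole lists given above. For comparison, 9.49% to 10.7% of all protein-coding promoters carried H3K27me3 in V16D/CTL and 8.67% to 9.13% in V16D/H19. The start of POU3F3 matters for its state. RefSeq places the outer end of the POU3F3 gene 839 bases upstream of the start used here, and from that position an H3K4me3 peak lay within 1 kb in 2 of 3 V16D/CTL and 3 of 3 V16D/H19 replicates.

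**Figure D1:**
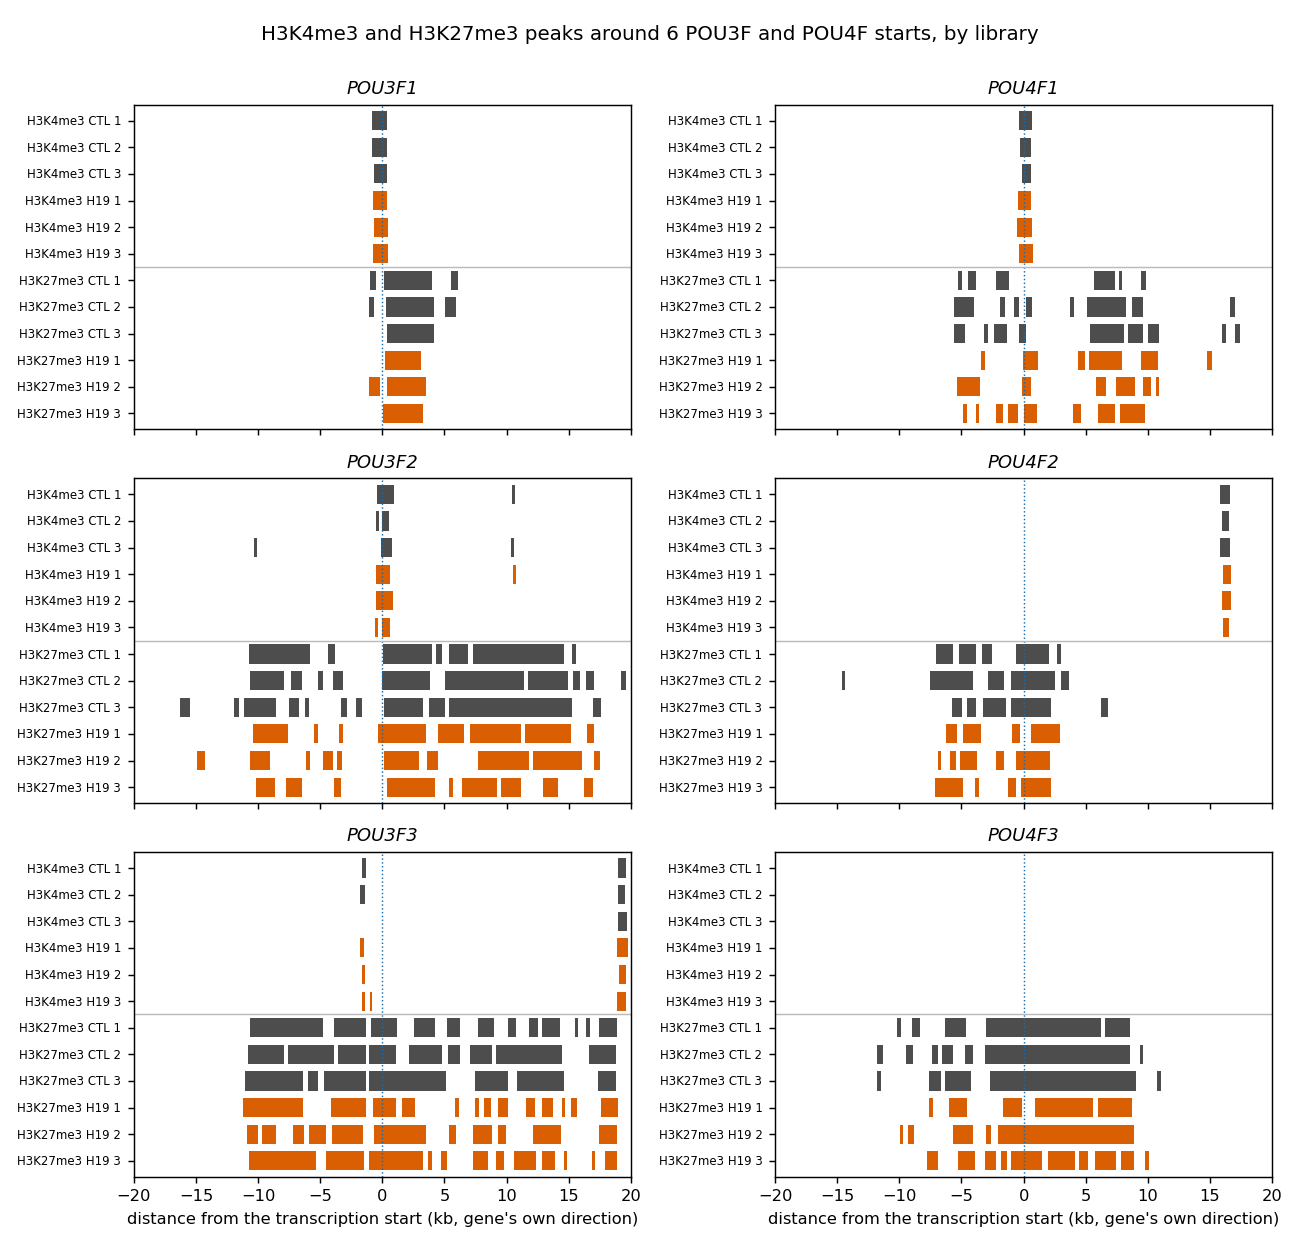
Peaks of H3K4me3 (upper 6 rows of each panel) and H3K27me3 (lower 6 rows) in each library, from 20 kb before to 20 kb after the start of 6 genes; the x axis is distance from the start in kb in the gene's own direction, gray bars are V16D/CTL and orange bars V16D/H19 peaks, and the dotted line is the start. H3K4me3 sits on the starts of POU3F1, POU3F2 and POU4F1, and the H3K27me3 domain of POU4F3 is called in 2, 1 and 1 pieces in V16D/CTL against 3, 2 and 7 pieces in V16D/H19.

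POU3F2, the factor of cortical and hypothalamic neurons, had more H3K27me3 in its window than any other of the 7 genes in all 6 libraries. Its main domain, merged over the libraries, measured 16.4 kb, began at -0.38 kb from the start and ran past the end of the gene. Positions are given as kb from the start in the gene's own direction, with negative values upstream. In its window H3K27me3 peaks covered 27.7, 31.3 and 29.7 kb in the 3 V16D/CTL libraries and 24.8, 21.5 and 23.1 kb in the 3 V16D/H19 libraries. All V16D/H19 libraries were below all V16D/CTL libraries, and the mean fell from 29.5 ± 1.81 to 23.1 ± 1.63 kb (SD, n = 3), which is 0.783 of the control (exact permutation test, p = 0.10, the smallest possible). The longest single peak measured 7.34, 6.33 and 9.89 kb in V16D/CTL against 4.05, 4.06 and 3.92 kb in V16D/H19. The strongest peak had a fold over input of 5.92, 6.25 and 5.81 in V16D/CTL against 4.98, 4.84 and 5.09 in V16D/H19. Neither measure overlapped between the groups.

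The length lost at POU3F2 lay both around the gene and far upstream. Within 10 kb on either side of the gene, H3K27me3 covered 17.4 to 18.0 kb in V16D/CTL and 12.9 to 16.5 kb in V16D/H19. Between -39.6 and -31.5 kb, 3 separate H3K27me3 sites were each called in 3 of 3 V16D/CTL libraries, with a fold over input of 3.34 to 3.98, and in 1 of 3 V16D/H19 libraries. Not all upstream sites followed. Sites that began at -61.8, -45.4 and -41.7 kb were each called in 1 of 3 V16D/CTL and 2 of 3 V16D/H19 libraries. How often such patterns occur over all sites was not computed. The site from -50.9 to -45.7 kb had a fold over input of 3.61, 4.0 and 3.67 in V16D/CTL against 3.46, 4.84 and 4.34 in V16D/H19.

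POU3F1, a regulator of myelinating Schwann cells, carried H3K4me3 at the start and H3K27me3 downstream over the gene body. In its window H3K27me3 covered 8.62, 8.63 and 9.25 kb in V16D/CTL against 5.90, 4.98 and 5.52 kb in V16D/H19. The groups did not overlap, and the mean fell from 8.83 ± 0.359 to 5.46 ± 0.462 kb (SD, n = 3), the lowest ratio of the set at 0.619 (exact permutation test, p = 0.10). Part of this length was away from the gene: within 10 kb the range was 3.84 to 5.15 kb in V16D/CTL and 2.93 to 3.96 kb in V16D/H19, and the groups overlapped. The longest peak, which covered the gene body, measured 3.79, 3.83 and 3.84 kb in V16D/CTL against 2.93, 3.11 and 3.24 kb in V16D/H19, without overlap. Its fold over input was 5.32, 5.52 and 6.23 in V16D/CTL against 4.85, 4.79 and 5.43 in V16D/H19, with overlap.

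POU3F3, which acts with POU3F2 in upper-layer cortical neurons and also in the kidney, had 4 H3K27me3 sites called in all 6 libraries, the first starting at -11.2 kb over the lncRNA gene PANTR1 and the last over the start of the lncRNA gene LINC01159 at 18.5 kb. H3K27me3 covered 20.2, 28.9 and 25.4 kb of its window in V16D/CTL against 19.001, 18.6 and 22.0 kb in V16D/H19. The groups overlapped, since the highest V16D/H19 library was above the lowest V16D/CTL library (means 24.9 ± 4.40 and 19.9 ± 1.88 kb, SD, n = 3, exact permutation test, p = 0.20). The strongest peak of the window had a fold over input of 5.43, 6.11 and 5.24 in V16D/CTL against 4.75, 4.71 and 4.23 in V16D/H19, without overlap. At the start itself the fold was 5.43, 6.11 and 5.07 in V16D/CTL against 4.49, 4.71 and 4.23 in V16D/H19.

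POU4F3, the hair cell factor, had a main H3K27me3 domain of 12.1 kb over the gene. H3K27me3 covered 13.9, 15.4 and 16.8 kb of its window in V16D/CTL against 10.7, 13.8 and 13.1 kb in V16D/H19. The lowest V16D/CTL and the highest V16D/H19 library were almost equal, with means of 15.4 ± 1.44 and 12.5 ± 1.66 kb (SD, n = 3, exact permutation test, p = 0.10), and within 10 kb of the gene the groups overlapped. The longest peak measured 9.33, 11.66 and 11.8 kb in V16D/CTL against 4.67, 11.0 and 2.51 kb in V16D/H19. The domain was called in 2, 1 and 1 pieces in V16D/CTL against 3, 2 and 7 pieces in V16D/H19, and the count overlapped between the groups at 2 pieces.

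POU4F2, the retinal ganglion cell factor, showed H3K27me3 over 6.66, 9.18 and 7.08 kb of its window in V16D/CTL against 5.33, 5.44 and 5.68 kb in V16D/H19. The groups did not overlap and the mean fell from 7.64 ± 1.35 to 5.48 ± 0.179 kb (SD, n = 3, exact permutation test, p = 0.10), and within 10 kb of the gene the groups were also apart (6.66 to 8.87 kb and 5.33 to 5.68 kb). A site of 1.94 kb that ended at -1.44 kb was called in 3 of 3 V16D/CTL libraries and 1 of 3 V16D/H19 libraries. Its fold over input was 3.28, 3.15 and 3.58 in V16D/CTL and 4.34 in V16D/H19 replicate 2. How often this pattern occurs over all sites was not computed.

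In the window of POU4F1, the sensory neuron factor, H3K27me3 covered 4.75, 8.79 and 8.70 kb in V16D/CTL against 6.80, 6.89 and 8.52 kb in V16D/H19. The means were 7.41 ± 2.31 and 7.40 ± 0.964 kb (SD, n = 3, exact permutation test, p = 1.0), and the lowest value was a V16D/CTL library. Its promoter peaks of H3K27me3 had a fold over input of 3.31 and 3.38 in V16D/CTL replicates 2 and 3 and of 3.30, 3.27 and 4.83 in V16D/H19, and V16D/CTL replicate 1 had none.

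**Figure D2:**
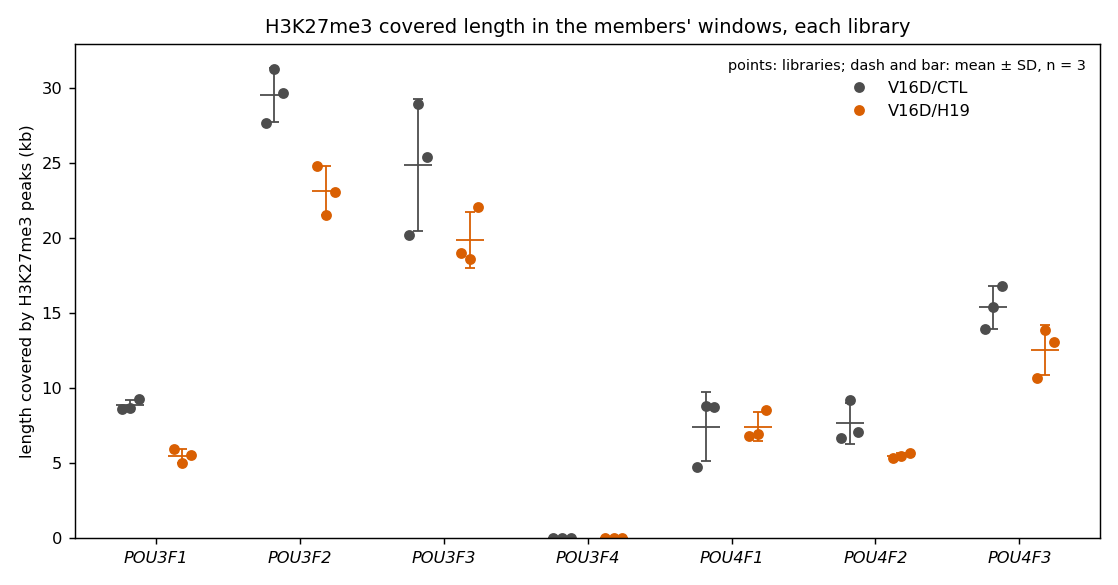
Length covered by H3K27me3 peaks (kb, y axis) in the window of each of the 7 genes (x axis); points are libraries, gray for V16D/CTL and orange for V16D/H19, and the dash and bar are the mean ± SD (n = 3). The groups are apart at POU3F1, POU3F2, POU4F2 and POU4F3, overlap at POU3F3 and POU4F1, and are at 0 at POU3F4.

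Read together, 4 of the 6 genes with H3K27me3 had groups that did not overlap, all lower in V16D/H19, and 2 had groups that overlapped. Within 10 kb of the genes the groups were apart at 2 of 6 (POU3F2 and POU4F2), against 26.2% of 2657 windows of that size with a peak in all 6 libraries. Such a fall was common across the genome. Of 4906 protein-coding gene windows with an H3K27me3 peak in all 6 libraries 31.5% had groups apart and lower in V16D/H19, and over the 9213 windows with a peak in any library the share was 20.5%. The ratio of mean covered length, V16D/H19 over V16D/CTL, had a median of 0.791 over the 6 genes (0.619 to 0.999) and a median of 0.755 over the 4906 windows (quartiles 0.614 and 0.917). The 6 ratios thus lay within or above the middle range of all windows, and the size of the fall was that of an ordinary window. The longest peak was lower without overlap at 2 of 6 genes (POU3F1 and POU3F2) against 21.3% of windows, and the strongest fold at 2 of 6 (POU3F2 and POU3F3) against 17.4%. With the same number of peaks kept in every library, 4 of 6 genes again had groups apart, against 32.2% of 4663 windows.

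**Figure D3:**
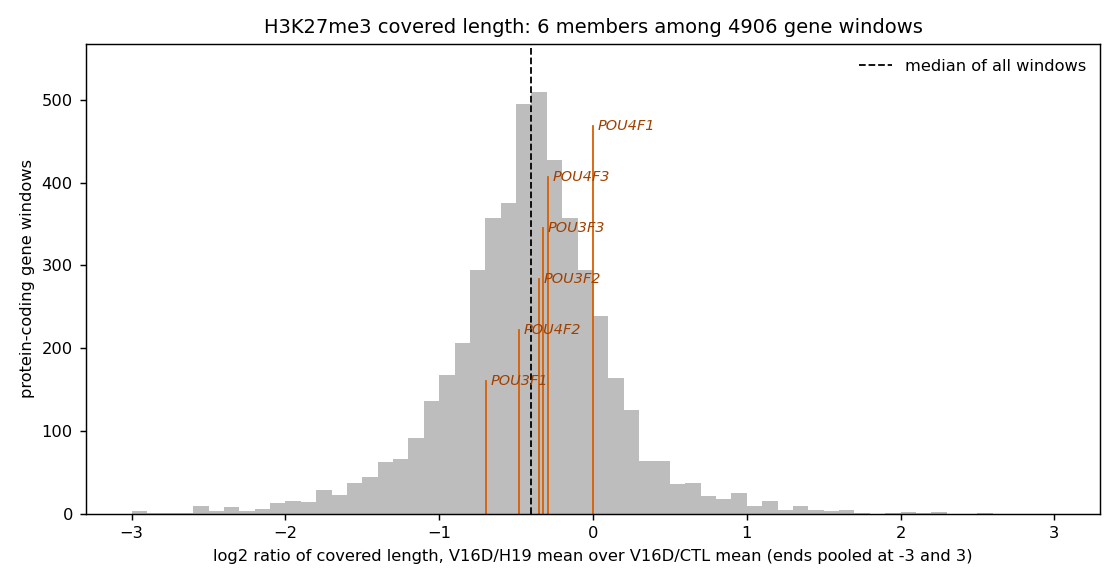
Histogram of the log2 ratio of H3K27me3 covered length (x axis, mean of V16D/H19 over mean of V16D/CTL) over 4906 protein-coding gene windows with a peak in all 6 libraries (y axis, number of windows); the dashed line is their median and the orange lines mark 6 POU genes. The POU genes sit on both sides of the median, which corresponds to a ratio of 0.755, and POU4F1 is at almost no change.

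H3K4me3 was found in the windows of 5 of the 7 genes, and the covered length overlapped between the groups at all 5, where 13.3% of windows with H3K4me3 in all 6 libraries had groups apart in either direction. At the POU3F2 promoter the highest fold over input was 17.7, 14.8 and 14.3 in V16D/CTL against 21.1, 22.5 and 7.39 in V16D/H19. V16D/H19 replicates 1 and 2 were above and replicate 3 was below every control library, so the groups overlapped. At the POU3F1 promoter it was 16.4, 13.0 and 16.9 in V16D/CTL against 19.3, 32.9 and 11.5 in V16D/H19, again with the lowest value in V16D/H19 replicate 3. The start of the lncRNA gene MIR3659HG, at -0.34 kb, lay in the same peak, which can therefore not be assigned to POU3F1 alone. At the POU4F1 promoter it was 8.38, 13.3 and 7.53 in V16D/CTL against 13.95, 13.1 and 10.03 in V16D/H19, with overlap.

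The POU4F1 promoter peak was wider in V16D/H19. It measured 1.007, 0.890 and 0.722 kb in V16D/CTL against 1.046, 1.165 and 1.12 kb in V16D/H19, and it was the only H3K4me3 peak within 10 kb of the gene. The groups did not overlap, but the widest V16D/CTL and the narrowest V16D/H19 peak were nearly equal. Of 11779 gene windows of this size with H3K4me3 in all 6 libraries, 8.04% had groups apart and higher in V16D/H19. The share of this promoter peak that also lay under H3K27me3 of the same replicate was 0%, 41.8% and 43.4% in V16D/CTL against 59.7%, 61.8% and 62.8% in V16D/H19.

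At POU4F1 the groups thus did not overlap in the share of the H3K4me3 peak under H3K27me3, with the library without an H3K27me3 promoter peak (V16D/CTL replicate 1) among the values. The H3K27me3 peaks at this promoter were weak. Their highest −log10 q was 1.67 and 1.90 in V16D/CTL replicates 2 and 3 and 1.51, 1.51 and 3.83 in V16D/H19. At a −log10 q of at least 3, H3K27me3 remained there in 0 V16D/CTL replicates and 1 V16D/H19 replicate. The share under H3K27me3 was higher in V16D/H19 without overlap at 1.85% of 540 promoters with H3K4me3 in all 6 replicates and both marks in at least 5, and at 1 of the 3 POU promoters of that kind. This background is not matched to POU4F1, since 436 protein-coding promoters carried both marks in all 6 replicates and POU4F1 did not. At POU3F2 and POU3F1 the groups overlapped in the same share. The share of the H3K4me3 peak that lay under H3K27me3 was 65.3%, 71.3% and 66.7% at POU3F2 in V16D/CTL against 90.5%, 52.8% and 33.6% in V16D/H19. At POU3F1 it was 43.7%, 17.4% and 3.23% in V16D/CTL against 16.2%, 50.1% and 32.3% in V16D/H19.

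**Figure D4:**
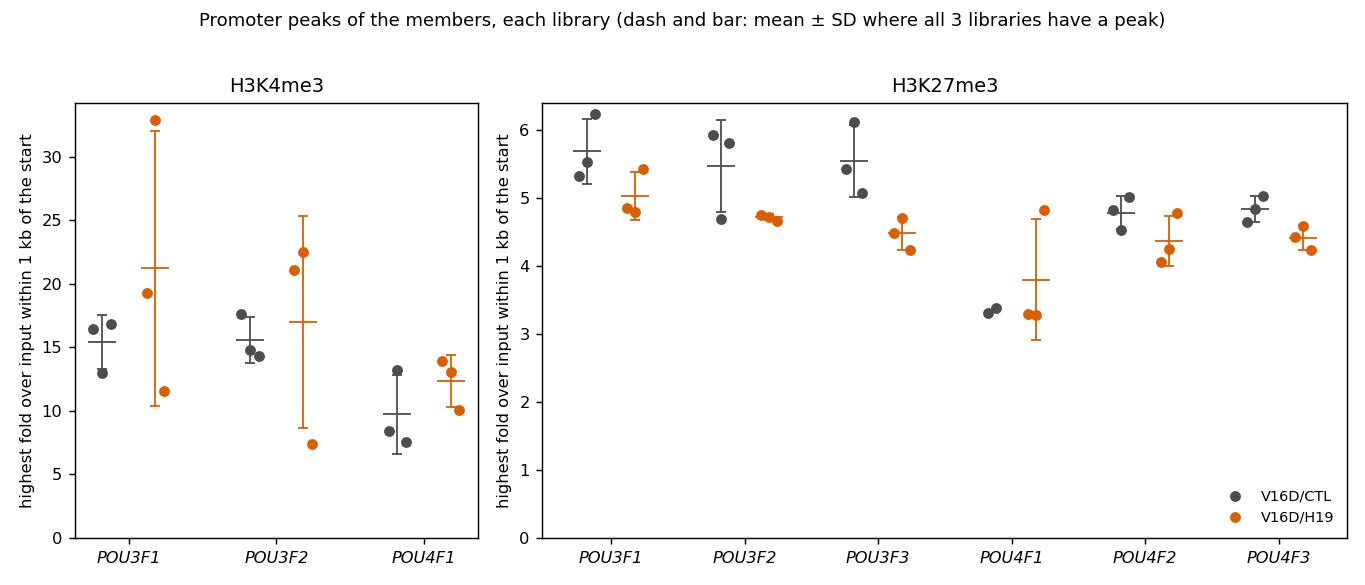
Fold over input (y axis, linear) of the strongest peak that reaches within 1 kb of the start, for H3K4me3 at 3 genes (left) and H3K27me3 at 6 genes (right); points are libraries, gray for V16D/CTL and orange for V16D/H19, and the dash and bar are mean ± SD where all 3 libraries have a peak. H3K4me3 in V16D/H19 spreads from 7.39 to 22.5 at POU3F2, and H3K27me3 at POU3F3 is lower in every V16D/H19 library.

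Away from the promoters, H3K4me3 peaks in the windows mostly lay near neighbouring genes. A peak at -56.6 to -54.1 kb from POU4F1 spanned the start of the neighbouring gene OBI1, which lies on the minus strand in the GENCODE annotation, and its fold over input was 26.2, 33.1 and 35.5 in V16D/CTL against 45.8, 47.2 and 43.5 in V16D/H19. This peak of OBI1 was the strongest of the window, and 1 of the 5 windows thus had its strongest H3K4me3 fold higher in V16D/H19 without overlap, against 6.92% of 13550 windows. A peak 15.8 to 16.7 kb downstream of the POU4F2 start had a fold of 16.1, 18.8 and 17.5 in V16D/CTL against 14.4, 14.9 and 17.5 in V16D/H19, and the nearest start in the RefSeq table was that of POU4F2. POU3F3 had peaks in all 6 libraries near the starts of LINC01114 and LINC01159, and the LINC01159 peak had a fold of 25.3, 23.7 and 14.3 in V16D/CTL against 17.8, 19.3 and 25.1 in V16D/H19. The POU3F3 site at -1.79 to -1.28 kb, which lay 0.849 kb from the start of PANTR1, had a fold of 5.52 and 4.66 in V16D/CTL replicates 1 and 2, no peak in replicate 3, and 6.92, 4.54 and 7.37 in V16D/H19.

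A distal H3K4me3 peak of POU3F2 was called in V16D/H19 only. It lay at -70.3 to -69.8 kb (chr6:98764245-98764801), with a fold over input of 4.52 in V16D/H19 replicate 1 and 5.41 in replicate 3, and with no peak in V16D/H19 replicate 2 or in any V16D/CTL library. Another distal peak, at 10.36 to 10.74 kb, was called in V16D/CTL replicates 1 and 3 and in V16D/H19 replicate 1, with folds of 5.02, 5.74 and 6.40. Across the windows of all 7 genes, none of 10 H3K4me3 sites and none of 55 H3K27me3 sites was called in every library of V16D/CTL and no library of V16D/H19 or the reverse, a pattern seen at 1.31% of 20708 H3K4me3 and 2.95% of 58789 H3K27me3 sites in the genome.

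Fold over input at sites called in all 6 libraries was compared with limma across the genome, with Benjamini-Hochberg adjustment over all sites of a mark. No site of the POU genes passed an adjusted p of 0.05. The background was as low, with 0.00632% of 15811 H3K4me3 sites (1 site, not in these windows) and 0% of 10934 H3K27me3 sites past the threshold, and with 1079 and 810 sites at an unadjusted p below 0.05. Of the 15 H3K27me3 sites fitted in these windows 13 were lower in V16D/H19, and the median log2 difference was -0.13 beside -0.01 over all H3K27me3 sites after centring of each library. Of these sites 5 lay at POU3F2 and 4 at POU3F3, so they are not 15 separate observations. The share of lower sites over all fitted H3K27me3 sites was not computed, and sites of like fold over input were not compared. The POU3F2 domain differed by -0.24 ± 0.11 on the log2 scale (SE, adjusted p = 0.66), the POU3F3 start by -0.26 ± 0.11 (adjusted p = 0.63), the POU3F1 gene body by -0.13 ± 0.11 (adjusted p = 0.84) and the POU4F3 domain by -0.01 ± 0.11 (adjusted p = 0.99). For H3K4me3, 4 of 7 fitted sites were lower and 3 higher, and the POU3F2 promoter differed by -0.08 ± 0.35 (adjusted p = 0.98), the POU3F1 promoter by 0.29 ± 0.33 (adjusted p = 0.91) and the POU4F1 promoter by 0.33 ± 0.30 (adjusted p = 0.89). In data drawn with the spread of the real H3K4me3 sites, 3% of log2 changes of 1 and 95% of log2 changes of 3 were called, and for H3K27me3 these shares were 96% and 100%. With 3 libraries a group, an H3K4me3 change of 1 on the log2 scale would thus seldom be called. The simulated sites kept a value in all 6 libraries. A real fall of a weak H3K27me3 peak can take it below the caller's threshold and its site out of the fit. Changes smaller than 1, such as those fitted at the POU sites, were not simulated. The H3K27me3 shares therefore do not tell how often such losses would be called.

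The deposited tables of differential sites, which hold only sites past their own threshold, annotate 5 sites to 3 of the 7 genes. All 3 had an H3K27me3 site lower in V16D/H19, against 2.73% of the 15841 protein-coding genes. Among the genes with H3K27me3 at the promoter in all 6 replicates this was so at 3 of the 5 POU genes and at 24.6% of 944 genes. At the 4 H3K27me3 sites the deposited group mean concentration (log2 of normalized reads, with no error given) was lower in V16D/H19, as it was at 91.5% of the 1140 sites of that table. It went from 8.96 in V16D/CTL to 8.55 in V16D/H19 at the POU3F2 promoter domain (chr6:98834192-98850616) and from 6.75 to 6.04 at the site at -11.2 to -5.84 kb from POU3F2 (chr6:98823406-98828732). It went from 7.5 to 7.0 at the POU3F1 promoter (chr1:38039868-38048650) and from 8.37 to 8.06 at the POU4F3 promoter (chr5:146335723-146348135). Over all its sites the medians were 7.09 and 6.51. Covered length in the same libraries was apart between the groups at 1 of these 4 sites. The sites had been selected by the authors' comparison of these libraries, so covered length is not separate evidence. The share of the 1140 sites with covered lengths apart was not computed. At the POU3F2 domain peaks covered 13.6, 14.001 and 14.2 kb in V16D/CTL against 13.7, 11.657 and 9.85 kb in V16D/H19, which overlap, and the groups also overlapped at the POU3F1 and POU4F3 sites. At the upstream POU3F2 site peaks covered 4.84, 3.63 and 3.70 kb and 2.84, 1.88 and 2.82 kb, which do not overlap. The H3K4me3 table holds 1 site of the set, the distal POU3F2 peak at -70.3 kb, with a concentration of 1.07 in V16D/CTL and 3.57 in V16D/H19, where the table medians were 8.59 and 8.30. A site higher in V16D/H19 was thus annotated to 1 of the 7 genes, against 1.6% of protein-coding genes, and 24% of the 1857 sites of that table were higher. Of the 8 other POU genes, 1 had a site in the tables, an H3K27me3 site lower in V16D/H19.

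Of the 8 other POU genes, 5 had a start in the RefSeq table. Of these 5, 1 carried H3K4me3 at the promoter in all 6 replicates (POU2F1, named after its values were seen), 1 carried H3K27me3 in 3 of 3 V16D/CTL and 2 of 3 V16D/H19 replicates (POU2F2, likewise), 3 had no peak there, and none carried both marks. None of the sites in their windows passed the limma threshold. The protein-coding promoter most alike to each gene, by the distance of log2 fold over input across the 12 lists with 0 where no peak was called, was TMEM59L for POU3F1 (distance 0.998), EGR4 for POU3F2 (0.702), GRM3 for POU3F3 (0.470), GREM1 for POU4F1 (0.732), LOC124903570 for POU4F2 (0.182) and GRIN2A for POU4F3 (0.122). These distances are descriptions over libraries that share cells and inputs, and they are small where a promoter had no H3K4me3 peak.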

How the data were processed

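H3K4me3 and H3K27me3 ChIP-seq was performed in 3 V16D/CTL and 3 V16D/H19 replicates. Per the labels, which name hg38, MACS2, DiffBind and ChIPseeker without versions, the authors called peaks in each library against its input, as narrow peaks for H3K4me3 and as broad peaks for H3K27me3, and replicates were not pooled. The aligner is not given in the sources used here. Each deposited list gives a fold over input (a linear ratio, at the summit for narrow peaks and over the whole peak for broad ones) and −log10 p and q values for each peak. The deposited tables of differential sites give the authors' group means as log2 concentrations, which were used, and a log2 fold, p-value and FDR, which were not. The lists hold no read counts, so count tests could not be run. Sequencing depth per sample is listed in the study's supplement and was not used here, and the counting error of a peak's fold is not known.

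Peak starts were made 1-based. Genes, starts and strands were taken from RefSeq (GRCh38.p14), and the GRCh37 genome and GENCODE annotation at hand were used only for the strand of OBI1. Overlapping peaks (minimum 1 base) from the 6 libraries of a mark were joined into sites, and sites found in at least 2 libraries were kept. Fold over input at sites present in all 6 libraries was log2 transformed, centred on the median of each library and compared with limma 3.58.1 (R 4.3.3), with Benjamini-Hochberg adjusted p-values called at 0.05. Covered length was compared by the exact permutation test of means, two-sided (20 assignments, smallest p 0.10), in SciPy 1.17.1. A promoter was the region within 1 kb of the start. The fit was tested on simulated data. Per the labels, 1 line was transduced in biological triplicate, and p-values measure the spread between these replicates.

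Values are given for the 7 genes in full, for other genes only where a site in a window lay nearest to their start or where they were most alike at the promoter, and for the other POU genes by counts. The genes, lists and tests were chosen with earlier results of these data known. Alternatives were a −log10 q of at least 5 or 3 (the latter chosen after seeing the data), lists of equal length, merging across gaps of 1 kb, no centring, other site rules, smaller windows (10 kb), wider promoters (2.5 kb), POU3F3 counted from the outer end of its gene (also chosen after seeing the data), pairing by replicate number and leaving out each replicate.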

Additional observations from a re-analysis of the deposited data

How the results depend on the processing

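No site in the windows of the POU genes passed the limma threshold under any alternative. Across the genome the number of H3K4me3 sites called was 1, and it became 0 without centring, 0 with the replicate block and 0 without any one replicate. For H3K27me3 it was 0, and it became 1 without centring, 1 with the replicate block, 2 with gaps merged and 0 to 1 without any one replicate. Sites in all libraries of a group and none of the other numbered 272 for H3K4me3 (476 to 689 without any one replicate) and 1735 for H3K27me3 (84 at a −log10 q of at least 5, 284 at 3, and 3950 to 5043 without any one replicate), and fewer libraries make this pattern easier to meet.

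The 4 of 6 genes with H3K27me3 covered lengths apart and lower became 2 (POU3F2 and POU4F2) within 10 kb of the genes. At a −log10 q of at least 3, where fewer peaks enter, it became 5 of 6. At a −log10 q of at least 5 it became 3 of 3 genes with peaks. There POU3F2 and POU3F3 had 0 kb in every V16D/H19 library and entered the count through V16D/CTL peaks alone. No conclusion is drawn from that count. With all peaks kept, the count was 4 to 6 without any one replicate, and without V16D/CTL replicate 1 it was 6. The share over all gene windows was not computed at these cut-offs or without a replicate, so these counts have no background beside them. Peaks past a −log10 q of 5 were a smaller share of the whole H3K27me3 lists in V16D/H19, as given above. Fewer libraries also make it easier for groups to be apart. For H3K4me3 covered length the count was 0, and it became 1 within 10 kb (POU4F1, higher) and 0 to 1 without any one replicate. Promoters with H3K27me3 averaged 5.83 of 7 and became 1.33 at a −log10 q of at least 5 and 4.83 at 3. Those with H3K4me3 averaged 3.17 and became 3.83 within 2.5 kb and 3.83 with POU3F3 counted from the outer end of its gene. Those with both averaged 3.00 and became 1.0, 2.33, 3.83 and 3.67 at a −log10 q of at least 5, at 3, within 2.5 kb and with POU3F3 counted from the outer end.

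None of the fitted differences that turned direction was called. Leaving out 1 replicate at a time, the H3K4me3 log2 difference ranged from -0.047 (without V16D/H19 replicate 2) to 0.64 at the POU3F1 promoter, from -0.33 to 0.41 (without V16D/H19 replicate 3) at the POU3F2 promoter and from -0.27 to 0.073 at the POU3F3 site near LINC01159, which was 0.0024 without centring. The H3K27me3 log2 difference ranged from -0.053 to 0.038 at the POU3F2 site from -54.6 kb (0.12 with gaps merged), from -0.22 to 0.071 at that from -5.2 kb, from -0.082 to 0.046 at the POU3F3 site from 7.0 kb, from -0.026 to 0.11 at the POU4F1 site from 5.1 kb and from -0.043 to 0.017 at the POU4F3 domain (0.064 at a −log10 q of at least 3). The cause of these turns was not tested.

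Same-numbered replicates did not deviate together (correlation across sites -0.000849 to 0.0260 for H3K4me3 and -0.00937 to 0.00892 for H3K27me3), not every library correlated best with its own number, and pairing is therefore taken as a number only. With it, all 3 pairs moved down at 5 of 6 genes for H3K27me3 covered length and moved together at 0 of 5 genes for H3K4me3, where the smallest p is 0.25. The length covered by the whole H3K27me3 lists also fell in each pair, from 45.1 to 42.3, 58.8 to 47.5 and 62.2 to 48.4 Mb. The share of all gene windows with all 3 pairs down was not computed. Mean H3K27me3 covered length, a looser measure, was lower in V16D/H19 at 82.6% of 4906 gene windows. Fold over input and the peak threshold limit what can be seen, since weak signal below the caller's threshold is not listed.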
